A study of Homo sapiens with 12 samples.

Results

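The SOX2-negative fraction of human embryonic stem cell colonies exposed to 3 doses of WNT3A was examined across all genes. The members are the 5 libraries, of 12 in the series, that the labels give as SOX2-negative. The cells were ESI017, a human embryonic stem cell line, carrying a SOX2::mCitrine reporter, so that fluorescence follows SOX2, a transcription factor of pluripotent and neural cells. Colonies on micropatterned glass coverslips received FGF8 (200 ng/ml) in N2B27 medium for 3 days, together with a dose of 100, 300 or 1000 ng/ml of WNT3A. They were then dissociated and sorted on the reporter before bulk poly(A) RNA sequencing. At 100 and 1000 ng/ml there were 2 SOX2-negative libraries, replicates 1 and 2, and at 300 ng/ml there was 1, from replicate 1. The labels describe the second set as a repeated biological experiment. The 5 SOX2-positive libraries have the same doses and replicates and came from the same coverslips. The 2 control libraries came from colonies in N2B27 without FGF8 or WNT3A, and no reporter gate is given for them. All libraries rest on this single reporter line, and FGF8 was the same at every WNT3A dose, so WNT3A and FGF8 cannot be told apart in comparisons with the controls alone.

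WNT3A is a secreted ligand that stabilises beta-catenin, which enters the nucleus and acts with TCF and LEF factors on target genes. In the gastrulating embryo, WNT and Nodal signals induce the primitive streak, from whose anterior part definitive endoderm, notochord and organizer cells arise and from whose more posterior parts lateral and cardiac mesoderm arise. FGF8 acts in the streak on the transition of epithelial cells to migrating mesenchymal cells. The comparison of doses asks whether the cells that lost SOX2 differ in these fates as WNT3A is raised.

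The 5 SOX2-negative libraries held 16474856 to 26033016 estimated counts, and 16149 gene symbols passed the filter on low counts. At these depths a count of 0 allows up to 0.115 to 0.182 CPM (library-scaled counts, with all reads of a library set to 1e6), for counting error only. SOX2 itself was at 1.85 to 5.98 CPM in the 5 SOX2-negative libraries and at 418 to 467 CPM in the SOX2-positive libraries, with no overlap. Endoderm and mesoderm markers were present in every SOX2-negative library: SOX17 was at 340 CPM or more and APLNR at 313 CPM or more, against 1.06 CPM or less for both genes in the controls. The WNT3A 100 ng/ml library of replicate 2 stood apart. Over the 16149 symbols its log2 CPM correlated with the other SOX2-negative libraries at r = 0.92 to 0.956, while those correlated among themselves at 0.972 to 0.99. It had 16998 symbols with a count against 18001 to 18533 in the others, and on the second principal component of all 12 libraries it lay at -41.7, between the other SOX2-negative libraries (-0.936 to 13.7) and the controls (-50.1 and -64.4). Counts of 2-fold symbols, medians of the main gene lists, the balance of mesoderm and endoderm genes, and slopes that move by over 1.5 times are given also without it, while the replicate 2 ratios cannot be had without it. In fits without that library the replicate term takes up the other replicate 2 library. Those slopes and list medians therefore rest on replicate 1 alone. Because the libraries are bulk RNA, fewer cells of a type and less RNA per cell cannot be told apart.

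No gene passed the test of a dose trend. The slope, the log2 change per 10-fold dose and so from 100 to 1000 ng/ml, was fitted by edgeR's quasi-likelihood test with the replicate as a block. Of 16149 symbols 0% passed a Benjamini-Hochberg adjusted p of 0.05, the lowest adjusted p was 0.17, and 1720 had an unadjusted p under 0.05. DESeq2 with the same terms called 148 symbols higher with dose (0.916% of those tested) and 89 lower (0.551%). A fit of edgeR to all 10 treated libraries, with a slope per gate, called 32 higher (0.189% of 16918) and 24 lower (0.142%) in the SOX2-negative cells. That fit had a replicate term but none for the coverslip. Both gates of a coverslip thus entered it as if independent. DESeq2 and the 10-library fit shared 50 symbols, which is 21.1% of the DESeq2 calls and 89.3% of the 10-library calls. Leaving out single libraries moved the edgeR count widely, as given in the section on processing. Without 1 of the replicate 2 libraries, the slope and its residual come from replicate 1 alone. Such a count measures no agreement between the repeats. Gene values below are therefore given library by library, with the slope and its standard error (SE), and a call is named with the tool that made it. For the genes named below, the adjusted p of the 5-library edgeR test was between 0.17 and 0.96.

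The repeats agreed on a part of the large dose differences and on little beyond them. For each symbol the log2 ratio of 1000 to 100 ng/ml was taken within each repeat after adding 0.5 CPM. The ratios had the same sign in 55.2% of 16037 symbols, and their correlation across genes was 0.23 (Pearson) and 0.20 (Spearman). Genes are not independent replicates, so these values are descriptions. The median absolute log2 ratio was 0.18 in replicate 1 and 0.74 in replicate 2, whose 100 ng/ml library is the one that stood apart. At least 2-fold differences were found for 732 symbols in replicate 1 and 5657 in replicate 2. Of the 340 symbols with 2-fold differences in both, 287 went the same way, 173 higher (1.07% of those tested) and 114 lower (0.706%), and 53 went opposite ways. The 287 symbols are 39.2% of those at 2-fold in replicate 1 and 5.07% of those in replicate 2. Leaving out ratios of 0, the sign was the same in both repeats for 72.8% of 698 symbols at 2-fold in replicate 1. For symbols at 2-fold in replicate 2 it was 62.3% of 5617. When both 1000 ng/ml libraries were set against the 100 ng/ml library of replicate 1 alone, 156 symbols were 2-fold higher and 116 lower. For the 1000 ng/ml library of replicate 2 that comparison mixes dose with repeat. The 300 ng/ml library did not enter these ratios: for 262 of the 287 symbols its level lay between those at 100 and 1000 ng/ml of replicate 1. The median share of the log2 difference already reached at 300 ng/ml was 55.5% (quartiles 40.2% and 70.9%), where a straight line on log dose gives 47.7%.

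**Figure D1:**
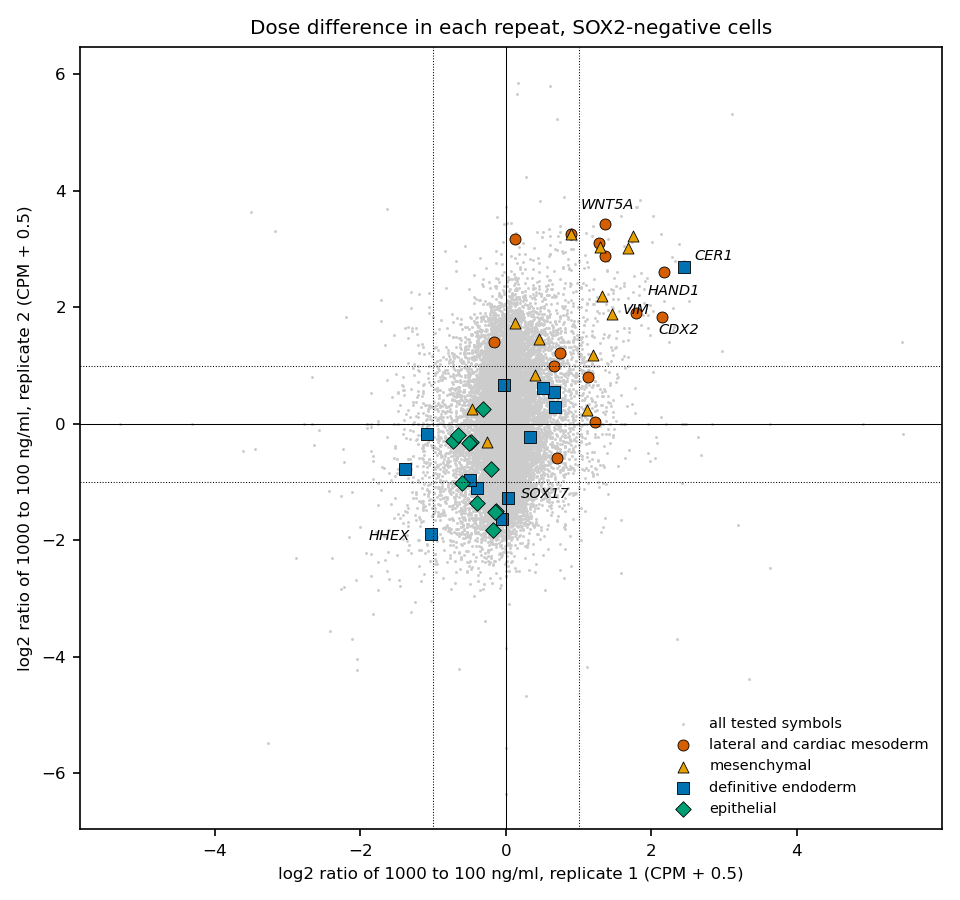
Each point is 1 of the tested symbols, placed by its log2 ratio of 1000 to 100 ng/ml WNT3A in replicate 1 (x) and replicate 2 (y), with 4 gene lists in colour and dotted lines at 2-fold. The cloud is wider in replicate 2 (median absolute log2 ratio 0.74 against 0.18), and HAND1, CDX2, VIM, WNT5A and CER1 lie beyond 2-fold in both, while SOX17 differs in replicate 2 alone.

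The 4 marker genes chosen for these cells did not move alike: HAND1, CDX2 and APLNR were higher at 1000 than at 100 ng/ml in both repeats, and SOX17 was not lower in both. HAND1, a transcription factor of lateral, cardiac and extraembryonic mesoderm, was at 12.6 and 28.7 CPM at 100 ng/ml in replicates 1 and 2, at 25.4 CPM at 300, and at 58.8 and 177 CPM at 1000. Both libraries at the top dose lay above both at the lowest, and the step was 4.54-fold in replicate 1 and 6.07-fold in replicate 2. The slope of HAND1 was 2.41 (SE 0.26), with an adjusted p of 0.17 by edgeR, 8.6e-11 by DESeq2 and 0.04 in the 10-library edgeR fit. CDX2, a homeobox factor of caudal and extraembryonic tissue, was at 4.25 and 5.08 CPM at 100 ng/ml, 10.9 at 300, and 18 and 17.0 at 1000. Its repeats lay closer together than those of HAND1, and its slope was 1.87 (SE 0.29; adjusted p 0.20 by edgeR and 0.0018 by DESeq2). APLNR, the apelin receptor of migrating mesoderm, was at 313 and 385 CPM, then 434, then 687 and 670, a 2.19-fold and 1.74-fold step (slope 0.96, SE 0.22; adjusted p 0.37 by edgeR and 0.061 by DESeq2). SOX17, an endoderm factor also found in primordial germ cells, was at 493 and 827 CPM at 100 ng/ml, 531 at 300, and 503 and 340 at 1000. Replicate 1 was flat (1.02-fold) and replicate 2 was 2.43-fold lower, so the groups overlapped. The slope of SOX17 was -0.64 (SE 0.34) and became 0.02 without either the 100 or the 1000 ng/ml library of replicate 2. Both of these fits take the slope from replicate 1 alone. In GENCODE 29 (GRCh38) HAND1 spans chr5:154474972-154478264, CDX2 chr13:27962137-27971139 and APLNR chr11:57233577-57237314, all on the minus strand, and the counts cover each gene's transcripts as a whole.

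**Figure D2:**
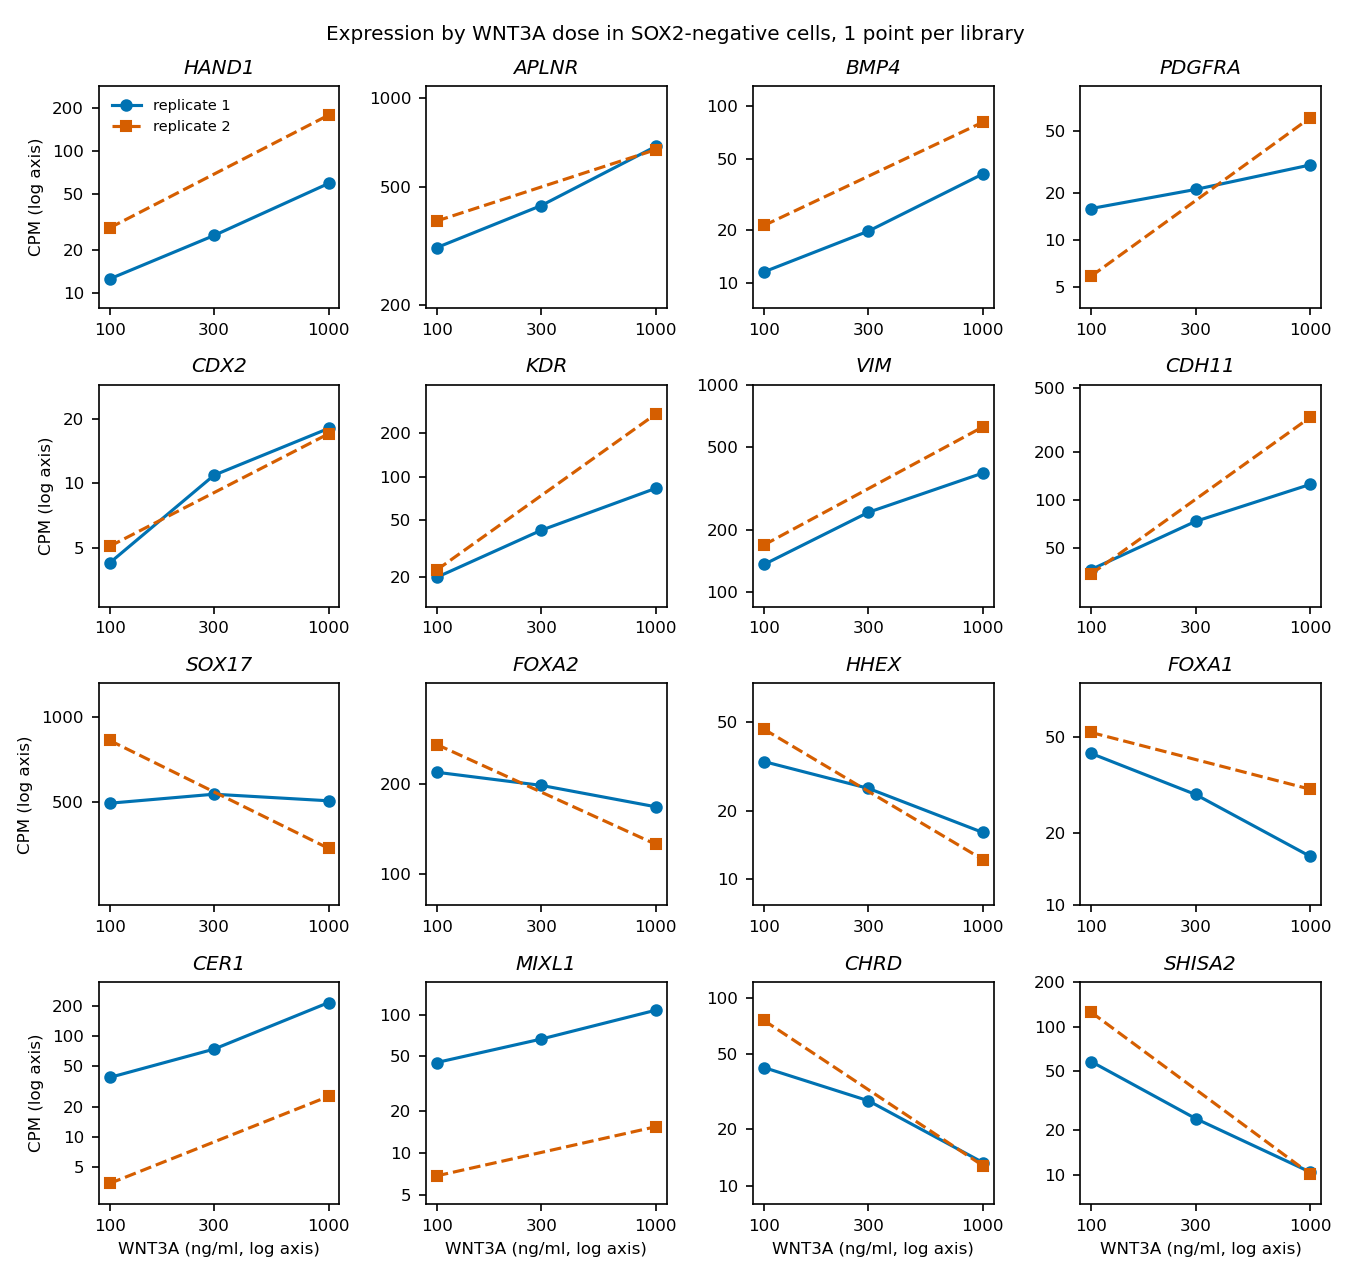
CPM (log axis) of 16 genes against WNT3A dose (ng/ml, log axis) in SOX2-negative cells, 1 point per library, circles for replicate 1 and squares for replicate 2, which has no 300 ng/ml library. HAND1, BMP4, CDX2, KDR, VIM and CDH11 are higher at 1000 ng/ml in both repeats, CHRD and SHISA2 lower, and CER1 and MIXL1 are offset between the repeats.

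The DNA just before the start of 3 of these genes is shown because the agent acts through TCF and LEF factors. The motif CTTTGA, a form of their core site, was searched on both strands. Other forms, such as CTTTGT, were not searched. Each sequence is the 250 bases before the RefSeq gene start (GRCh38.p14), all 3 genes on the minus strand, written 5′ to 3′ along the gene, with the motif or its reverse complement in capitals: HAND1 at chr5:154478228-154478477, CDX2 at chr13:27969316-27969565, and SHISA2, the gene with the largest shared decrease in level (described below), at chr13:26052017-26052266.
HAND1: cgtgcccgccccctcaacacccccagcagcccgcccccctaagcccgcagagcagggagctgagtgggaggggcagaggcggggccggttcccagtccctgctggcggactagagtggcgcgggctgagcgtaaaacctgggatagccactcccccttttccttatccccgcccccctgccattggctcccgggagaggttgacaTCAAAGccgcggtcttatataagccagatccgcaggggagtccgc
CDX2: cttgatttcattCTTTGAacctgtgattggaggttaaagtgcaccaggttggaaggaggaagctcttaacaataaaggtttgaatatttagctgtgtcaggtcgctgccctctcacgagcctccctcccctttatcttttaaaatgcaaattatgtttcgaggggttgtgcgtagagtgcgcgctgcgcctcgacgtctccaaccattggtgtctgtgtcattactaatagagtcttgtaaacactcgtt
SHISA2: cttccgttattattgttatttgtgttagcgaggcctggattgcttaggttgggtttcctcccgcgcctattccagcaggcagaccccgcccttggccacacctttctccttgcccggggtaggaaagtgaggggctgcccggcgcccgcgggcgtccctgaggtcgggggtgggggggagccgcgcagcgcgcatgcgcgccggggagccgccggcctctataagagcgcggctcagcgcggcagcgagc
HAND1 holds 1 match, at position -45 from the start on the other strand, CDX2 holds 1 at -238 on the gene's own strand, and SHISA2 holds none in this window. KDR, BMP4, LEF1 and HAPLN1, also searched, hold no CTTTGA on either strand in theirs. The BMP4, LEF1 and HAPLN1 windows lie downstream of the gene starts in GENCODE 29, which are at positions 53958761, 108168956 and 83721613. For CDX2, GENCODE 29 starts the gene further upstream than RefSeq, at position 27971139, and for SHISA2 further downstream, at position 26051031, so the SHISA2 window lies upstream of that start and not directly before it. The GENCODE 29 start of HAND1, at position 154478264, lies inside its window. The last bases of that window thus fall within the gene by GENCODE 29, and the match lies just before that start. Over all 27305 promoter windows of this length 11.4% hold the motif on either strand, and 7.73% of the 11734 windows that matched a tested symbol. Among the symbols 2-fold higher in both repeats 117 of 173 had a window and 15 of these (12.8%) held the motif, and among those 2-fold lower 71 of 114 had a window and 1 (1.41%) held it. The motif was chosen after the gene values were seen, and a match is a run of letters, not a measured binding site.

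Genes of lateral and cardiac mesoderm were higher at the top dose almost throughout the list. Of 16 genes, 14 passed the filter, and 12 had both 1000 ng/ml libraries above both at 100 ng/ml, where 22.2% of all tested symbols did so. None was separated the other way, against 20.6% of all tested symbols. The filter needs a level in only 1 library, so a gene high in a single library passes by it, and these counts are descriptions. The median slope over the 14 was 2.16, against 0.02 over all tested symbols. Without the 100 ng/ml library of replicate 2 it was 1.20 (0.00 over all tested symbols). Both 1000 ng/ml libraries lay above the 100 ng/ml library of replicate 1 in 12 of the 14, beside 29.3% of all tested symbols. For the 1000 ng/ml library of replicate 2 that comparison mixes dose with repeat. Of the 14, DESeq2 called 7 higher (HAND1, FOXF1, PDGFRA, BMP4, TBX20, NKX2-5 and WNT5A), and the 10-library fit called HAND1 and BMP4.

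BMP4, a ligand that patterns posterior and lateral mesoderm, was at 11.6 and 21.2 CPM at 100 ng/ml, 19.7 at 300, and 41.4 and 81.1 at 1000. The step was 3.46-fold in replicate 1 and 3.76-fold in replicate 2, and the groups did not overlap (slope 1.87, SE 0.24; adjusted p 6.4e-06 by DESeq2 and 0.04 in the 10-library fit). In the controls, which had neither ligand, BMP4 was at 62.1 and 53 CPM, above 4 of the 5 SOX2-negative libraries. NKX2-5, a cardiac homeobox factor, was at 1.38 and 3.16 CPM, then 3.21, then 7.82 and 12.6. TBX20, a T-box factor of the heart field, was at 0.539 and 0.128 CPM, then 1.77, then 2.02 and 4.90. FOXF1, a forkhead factor of splanchnic mesoderm, was at 1.44 and 1.03 CPM, then 3.05, then 4.52 and 10.7. Without the 100 ng/ml library of replicate 2 the slope went from 3.39 to 1.64 for TBX20 and from 2.52 to 1.56 for FOXF1. All 3 genes had the same order of doses in replicate 1 and low levels at 100 ng/ml, where counts limit the precision of the ratio. TBX3, a T-box factor of mesoderm, was at 149 and 80.0 CPM, then 208, then 251 and 187 (slope 0.98, SE 0.25).

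The size of the mesoderm difference was larger in replicate 2 for several genes. PDGFRA, the receptor marking paraxial and cardiac mesoderm, was at 16 CPM at 100 ng/ml and 30.4 at 1000 in replicate 1, with 21.2 at 300, and at 5.90 and 60.9 in replicate 2. That is a 1.87-fold step beside a 9.61-fold step. WNT5A, a ligand of non-canonical WNT signalling, was at 25.8, 33.9 and 67.4 CPM over the 3 doses of replicate 1 and at 7.01 and 80.2 in replicate 2 (slope 2.39, SE 0.53). For both genes the 100 ng/ml library of replicate 2 was the lowest of the 5. Without that library the slope was 0.92 for PDGFRA, against 2.11 with it, and 1.41 for WNT5A. MESP1, which marks early cardiac progenitors, was 2.33-fold higher in replicate 1 and 1.02-fold in replicate 2 (slope 0.64, and 1.26 without the same library). ISL1, of the second heart field, was 1.58-fold and 2.00-fold higher. HAND2 was at most 0.428 CPM in 4 libraries and 4.00 CPM at 1000 ng/ml in replicate 2, so its place among the higher genes comes from 1 library. TBX5 and TNNT2, markers of differentiated heart tissue, did not pass the filter, and MYL7, an atrial myosin chain, stayed between 4.74 and 8.67 CPM.

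Other mesoderm lists were less uniform. Of the 7 intermediate mesoderm genes 6 passed the filter. PAX2 and PAX8 were separated higher and SIX2 lower, beside 22.2% and 20.6% of all tested symbols. PAX8 was at most 1.11 CPM. The median slope of this list was 0.82, and 0.25 without the 100 ng/ml library of replicate 2. PAX2, a factor of intermediate mesoderm and kidney, was at 3.65 and 4.53 CPM at 100 ng/ml, 11.2 at 300, and 19.9 and 19.4 at 1000 (slope 2.23, SE 0.31; adjusted p 6.1e-05 by DESeq2). Of the 13 presomitic and somitic genes 11 passed the filter. TBX6 and MESP2 were separated higher and none lower, beside 22.2% and 20.6% of all tested symbols. TBX6, which sets paraxial mesoderm apart from neural fate, was at 10.1 and 11 CPM, then 10.1, then 19.4 and 12.1. MSGN1, a presomitic factor, was at most 1.01 CPM. In the endothelial and blood list 5 of 12 passing genes were separated higher (KDR, TAL1, CDH5, TEK and GATA2) and 1 lower (PECAM1), beside 22.2% and 20.6% of all tested symbols. KDR, the VEGF receptor of mesodermal and endothelial progenitors, was at 20 and 22.5 CPM, then 42.4, then 82.8 and 271, which is 4.05-fold and 11.8-fold (slope 2.82, SE 0.42; adjusted p 4.8e-10 by DESeq2 and 0.04 in the 10-library fit). TEK, the angiopoietin receptor of endothelium, was at 9.93 and 4.19 CPM, then 16.2, then 17.1 and 16.2 (slope 1.36, and 0.73 without the 100 ng/ml library of replicate 2). GATA2, a factor of blood and endothelial progenitors, was at 7.78 and 9.10 CPM, then 12, then 17 and 18.8. Other defining endothelial genes lay in narrower or lower ranges: CDH5 was at 2.69 to 3.69 CPM, PECAM1 at 4.89 to 5.98 CPM, ETV2 at 0.778 to 2.61 CPM and TAL1 at most 1.36 CPM. KDR was also at 96.1 to 190 CPM in the SOX2-positive libraries, so its level is not particular to the SOX2-negative gate.

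Among caudal genes, WNT8A, a ligand of the posterior streak, was at 10.1 and 4.83 CPM, then 14.7, then 25.4 and 11.9, which is 2.46-fold and 2.34-fold (slope 1.31, SE 0.24; adjusted p 0.28 by edgeR and 0.047 by DESeq2). The groups were separated, though by little. CDX1 stayed between 0.824 and 1.86 CPM and CDX4 had no count in these libraries. CYP26A1, which degrades retinoic acid, was at 271 to 305 CPM in 4 libraries and at 31.1 CPM in the 1000 ng/ml library of replicate 2. HOX transcripts, whose genes specify head-to-tail identity, were low at every dose. The 12 genes of groups 1 to 4 summed to 0.838 and 3.16 CPM at 100 ng/ml, 3.37 at 300, and 8.88 and 24.9 at 1000. The 15 genes of groups 5 to 9 summed to 0.658 and 3.08 CPM, then 1.61, then 3.62 and 25.4. HOXB9 was at 8.08 CPM in the 1000 ng/ml library of replicate 2 and at most 1.02 CPM in the others, and HOXA7, HOXA9 and HOXC6 had a count in that library alone. The signal of HOXB9, HOXA7, HOXA9 and HOXC6 thus rests on 1 library.

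Mesenchymal genes were higher and epithelial genes lower at the top dose. Of 14 mesenchymal genes 13 passed the filter and 11 were separated higher, none lower, beside 22.2% and 20.6% of all tested symbols. The median slope was 1.67, and 1.12 without the 100 ng/ml library of replicate 2. VIM, the intermediate filament of mesenchymal cells, was at 136 and 169 CPM at 100 ng/ml, 243 at 300, and 376 and 628 at 1000. The groups did not overlap, with a 2.76-fold and 3.71-fold step (slope 1.67, SE 0.24; adjusted p 9.8e-06 by DESeq2 and 0.016 in the 10-library fit). CDH11, a cadherin of mesenchyme, was at 36.9 and 34.6 CPM, then 73.6, then 125 and 327 (slope 2.50, SE 0.41). SNAI2, a repressor of epithelial adhesion, was at 5.68 and 3.85 CPM, then 11.7, then 19.3 and 34.9 (slope 2.47, SE 0.40). DESeq2 and the 10-library fit called both. ZEB2, another such repressor, was at 7.42 and 2.95 CPM, then 12.6, then 19.0 and 27.6 (slope 2.27, and 1.33 without the same library). SNAI1, the related factor that acts early in the streak, was at 35.2 and 30.2 CPM, then 51.3, then 76.7 and 35.4, so replicate 2 differed by 1.17-fold only. FN1, fibronectin, was at 6306 and 4978 CPM, then 9572, then 8613 and 13576 (slope 0.95, and 0.43 without the same library). CDH2, the neural and mesodermal cadherin, was not separated (898 and 613 CPM, then 817, then 655 and 730).

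All 11 epithelial genes passed the filter, all 11 had a slope below 0, and 6 were separated lower (20.6% of all tested symbols were), but none was 2-fold lower in both repeats and neither DESeq2 nor the 10-library fit called any. EPCAM, an epithelial adhesion molecule, was at 469 and 450 CPM, then 369, then 335 and 362. KRT8, a keratin of simple epithelia, was at 3262 and 6399 CPM, then 3145, then 2987 and 2271. Replicate 1 thus differed by 1.09-fold and replicate 2 by 2.82-fold. KRT8, KRT18, KRT19 and CLDN6 were highest of all 5 in the 100 ng/ml library of replicate 2. CDH1, the epithelial cadherin, was at 122 and 170 CPM, then 101, then 74.4 and 139, with overlapping groups.

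Definitive endoderm genes differed in both directions between doses. All 13 passed the filter. Of these 6 were separated lower (FOXA2, FOXA1, FOXA3, HHEX, KIT and FRZB) beside 20.6% of all tested symbols, and GATA4 was among those separated higher (22.2% of all tested symbols). The median log2 ratio over the list was -0.03 in replicate 1 and -0.23 in replicate 2, and the median slope was -0.64 with all 5 libraries and -0.04 without the 100 ng/ml library of replicate 2. FOXA2, a forkhead factor of endoderm, notochord and floor plate, was at 219 and 271 CPM, then 198, then 168 and 126, which is 1.31-fold and 2.14-fold lower (slope -0.76, SE 0.27, and -0.40 without the same library). FOXA1, its relative in gut endoderm, was at 42.8 and 52.3 CPM, then 28.9, then 16 and 30.4. HHEX, a homeobox factor of anterior endoderm, was at 33.3 and 46.4 CPM, then 25.3, then 16.1 and 12.2, and was the list member that DESeq2 called lower (slope -1.51, SE 0.30; adjusted p 0.31 by edgeR and 0.0055 by DESeq2). DESeq2 also called 1 list member higher. The 10-library fit called 1 member higher and 0 lower, beside 0.189% and 0.142% of all symbols in that fit. GATA4, a factor shared by endoderm and cardiac mesoderm, was at 149 and 111 CPM, then 206, then 235 and 162. GATA6, also shared by both layers, was at 147 and 68.7 CPM, then 179, then 234 and 84.3, higher within each repeat. CXCR4, the chemokine receptor used to sort endoderm, was at 82.9 and 84.5 CPM, then 103, then 104 and 71.9. Of genes of later gut, liver and pancreas, HNF4A was at 18.1 to 32.7 CPM, while TTR, FGB and PDX1 had no count and AFP was at most 0.989 CPM.

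CER1, a secreted antagonist of Nodal, WNT and BMP made by anterior endoderm, went the other way from HHEX. It was at 38.8 CPM at 100 ng/ml, 74.1 at 300 and 214 at 1000 in replicate 1, and at 3.46 and 25.2 CPM in replicate 2. The dose step was alike in size, 5.47-fold and 6.49-fold, while every level of replicate 2 lay below every level of replicate 1. The slope of CER1 was 2.64 (SE 0.27; adjusted p 2.5e-12 by DESeq2 and 0.04 in the 10-library fit).

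The balance of both lists was summarised as the mean log2 (CPM + 0.5) of the lateral and cardiac mesoderm list minus that of the definitive endoderm list. It was -3.96 and -3.87 at 100 ng/ml, -3.54 at 300, and -3.03 and -1.95 at 1000. Within a repeat it was higher at 1000 by 0.93 in replicate 1 and 1.92 in replicate 2 (mean 1.42, SD 0.70, n = 2). The mesoderm mean was 2.66 and 2.51, then 3.13, then 3.60 and 4.18. The endoderm mean was 6.62 and 6.38, then 6.67, then 6.63 and 6.13. Against the 100 ng/ml library of replicate 1 alone, the 1000 ng/ml libraries were higher by 1.47 on average. For the 1000 ng/ml library of replicate 2 that difference mixes dose with repeat. The endoderm mean of replicate 1 was nearly level while its members went opposite ways. FOXA1 was 2.63-fold, KIT 2.11-fold and HHEX 2.04-fold lower, and GATA4 was 1.58-fold and GATA6 1.59-fold higher. Another list member was at least 2-fold higher in both repeats and also counts in this mean. The endoderm mean of replicate 2 was lower at 1000 ng/ml, and the 100 ng/ml library of replicate 2 is the one that stood apart. The score was built on lists chosen with these data known and carries no test.

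**Figure D3:**
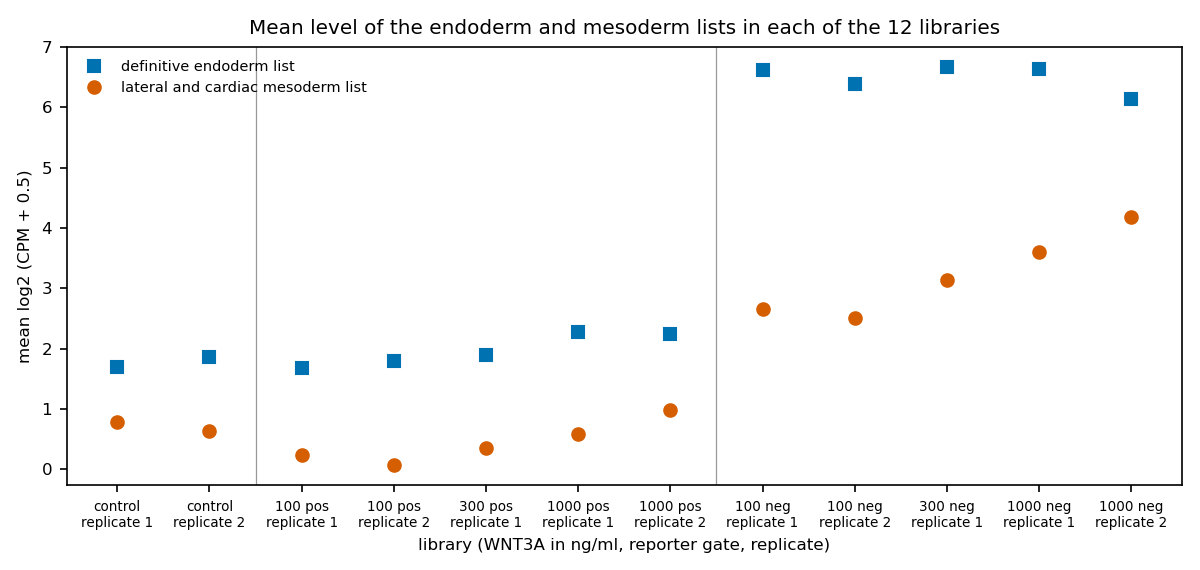
Mean log2 (CPM + 0.5) of the definitive endoderm list (squares) and the lateral and cardiac mesoderm list (circles) in each of the 12 libraries, labelled by WNT3A dose in ng/ml, reporter gate and replicate. In the SOX2-negative libraries the mesoderm mean goes from 2.66 and 2.51 at 100 ng/ml to 3.60 and 4.18 at 1000, while the endoderm mean stays between 6.13 and 6.67.

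Some organizer and notochord genes were lower at the top dose. All 9 organizer genes passed the filter, and 3 of them, CHRD, SHISA2 and DKK1, were separated lower, beside 20.6% of all tested symbols. These 3 were also 2-fold lower in both repeats. SHISA2, an inhibitor of WNT and FGF receptor maturation, was at 58.0 and 125 CPM at 100 ng/ml, 23.9 at 300, and 10.4 and 10.1 at 1000. The groups lay far apart, 5.35-fold and 11.8-fold (slope -3.06, SE 0.36; adjusted p 0.17 by edgeR, 8.1e-13 by DESeq2 and 0.016 in the 10-library fit). CHRD, the BMP antagonist chordin, was at 42.5 and 75.6 CPM, then 28.3, then 13.3 and 12.8 (slope -2.14, SE 0.32; adjusted p 2.5e-06 by DESeq2). DKK1, a secreted WNT antagonist that is itself a WNT target, was at 65.4 and 45.8 CPM, then 42.4, then 30.8 and 9.68 (slope -1.66, SE 0.34, and -1.10 without the 100 ng/ml library of replicate 2). LHX1, an organizer factor also made in mesendoderm, was at 210 and 130 CPM, then 295, then 344 and 156, and was not separated. GSC, the organizer factor goosecoid, was at 2.87 and 1.92 CPM, then 4.07, then 7.98 and 0.206, with opposite directions in the repeats. In the notochord list 4 of 6 genes were separated lower (SHH, FOXJ1, CHRD and FOXA2) and NOTO higher. Of all tested symbols 20.6% and 22.2% were. CHRD and FOXA2 are also in lists above. The median slope of the notochord list was -1.26, and -0.78 without the same library. FOXJ1, the regulator of motile cilia expressed in the node, was at 27.4 and 65.3 CPM, then 18.5, then 12.2 and 10.5 (slope -1.91, SE 0.40; adjusted p 6.9e-04 by DESeq2). Without the same library its slope was -1.17. NOTO, a defining notochord factor, was at most 0.536 CPM.

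Primitive streak genes were present at all doses. Of 10 genes none was separated higher and SP5 was separated lower, beside 22.2% and 20.6% of all tested symbols. TBXT (brachyury) was at 25 CPM, 27.8 and 59.3 over the doses of replicate 1 and at 10.8 and 9.11 in replicate 2. EOMES, which drives endoderm and cardiac mesoderm, was at 290, 321 and 342 CPM in replicate 1 and at 145 and 108 in replicate 2. MIXL1, a homeobox factor of the streak, was at 45.2, 66.8 and 108 CPM in replicate 1 and at 6.84 and 15.5 in replicate 2, a 2.37-fold and 2.18-fold dose step (slope 1.21, SE 0.24; adjusted p 0.015 by DESeq2 and 0.047 in the 10-library fit).

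Direct targets of WNT differed in both directions between doses. Of 14 target genes 3 were separated higher (LEF1, NKD1 and LGR5) and 2 lower (SP5 and DKK1), beside 22.2% and 20.6% of all tested symbols. The median slope was 0.14, and 0.29 without the 100 ng/ml library of replicate 2. AXIN2, the feedback inhibitor most used as a readout, was at 69.2 and 43.2 CPM, then 81.9, then 83.0 and 33.3, against 27.8 and 29.5 in the controls. The repeats went opposite ways. SP5, a repressor induced by WNT, was at 359 and 466 CPM, then 352, then 295 and 156 (slope -0.95, and -0.29 without the same library). LEF1, a transcription factor of the pathway, was at 10.2 and 11.2 CPM, then 15.7, then 24.1 and 47.6, which is 2.30-fold and 4.13-fold (slope 1.66, SE 0.30; adjusted p 0.0019 by DESeq2). LGR5, the R-spondin receptor, was at 31.4 and 15 CPM, then 41.2, then 58.4 and 67.0 (slope 1.51, SE 0.36; adjusted p 0.0070 by DESeq2). Without the same library its slope was 0.89. NKD1, a feedback inhibitor, was 1.65-fold and 2.12-fold higher at 1000 ng/ml.

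Of 12 FGF targets 5 were separated higher and none lower, beside 22.2% and 20.6% of all tested symbols, and DESeq2 called none. DUSP6, a phosphatase induced by FGF, was at 202 and 174 CPM, then 286, then 308 and 257. In the BMP list 6 of 14 were separated higher and 2 lower (ID1 and BMP7), beside 22.2% and 20.6% of all tested symbols. In both repeats 3 (BMP4, MSX2 and GATA2) were 2-fold higher, beside 1.07% of all tested symbols. MSX2, a BMP target, was at 37.9 and 35.9 CPM, then 54.7, then 79.0 and 75.6 (slope 1.05, SE 0.24; adjusted p 0.36 by edgeR and 0.044 by DESeq2). ID1, the most direct BMP target, was at 530 and 881 CPM, then 490, then 471 and 320. SMAD6, an inhibitory SMAD, was 2.14-fold and 1.55-fold higher at 1000 ng/ml. Of 11 Nodal pathway genes none was separated higher and 1, ACVR1B, lower, beside 22.2% and 20.6% of all tested symbols. CER1 and GDF3 were 2-fold higher in both repeats. GDF3, a ligand of the same family, was at 0.898 CPM and at 0 at 100 ng/ml, 2.84 at 300, and 3.30 and 0.742 CPM at 1000. LEFTY1, a Nodal antagonist, was 2.10-fold higher at 1000 ng/ml in replicate 1 and 1.75-fold lower in replicate 2. In the Notch list 2 of 12 were separated in each direction, beside 22.2% (higher) and 20.6% (lower) of all tested symbols.

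**Figure D4:**
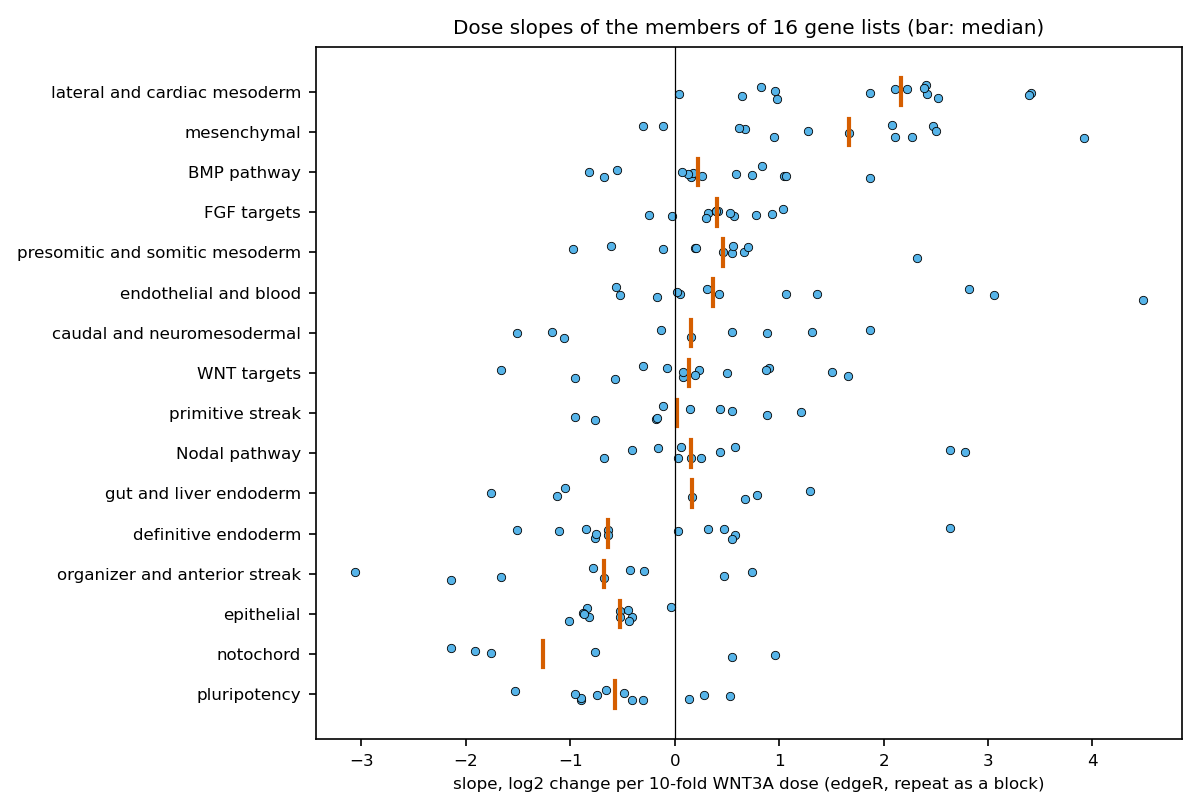
Slopes (log2 change per 10-fold WNT3A dose) of the members of 16 gene lists in SOX2-negative cells, 1 point per gene that passed the filter, with a bar at each list's median. The medians of lateral and cardiac mesoderm (2.16) and mesenchymal genes (1.67) lie to the right, and those of epithelial (-0.52) and notochord genes (-1.26) to the left of the 0.02 of all tested symbols.

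The genes with the largest dose difference shared by both repeats were taken by the smaller of the 2 log2 ratios, among symbols with a mean of at least 5 CPM and a 300 ng/ml level in between. They are defined by these levels, so the values describe them. Higher at 1000 ng/ml were HAPLN1, CER1, FMOD, HAND1, COL5A2, HS3ST3A1, KDR, PAX2, FMC1-LUC7L2 and PCSK2. Several make or bind extracellular matrix. HAPLN1, a link protein that ties hyaluronan to proteoglycans, was at 1.56 and 2.69 CPM at 100 ng/ml, 6.21 at 300, and 17.2 and 127 at 1000. The step was 8.62-fold in replicate 1 and 39.9-fold in replicate 2 (slope 4.59, SE 0.57), and the controls were at 32.9 and 39.7 CPM. FMOD, the collagen-binding fibromodulin, was at 2.75 and 5.34 CPM, then 8.89, then 16.5 and 49.2. COL5A2, a chain of type V collagen, was at 20.3 and 17.7 CPM, then 51.2, then 93.3 and 78.3, with repeats at 4.50-fold and 4.32-fold. Its partner chain COL5A1, looked up after these values, was at 359 and 340 CPM, then 587, then 728 and 652, and was called by the 10-library fit (adjusted p 0.046). HS3ST3A1, a heparan sulfate sulfotransferase, was at 3.59 and 8.67 CPM, then 9.32, then 23.0 and 38.9. PCSK2, a prohormone convertase, was at 9.04 and 11.1 CPM, then 24.6, then 38.1 and 43.6. FMC1-LUC7L2 is a readthrough symbol that shares exons with its neighbours, so its value is uncertain.

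Lower at 1000 ng/ml by the same rule were SHISA2, COL4A4, TTYH1, FOXI2, OTOF, LMX1B, AMIGO3, OTX1, TMPRSS13 and GPC3. COL4A4, a chain of the type IV collagen of specialised basement membranes, was at 18.1 and 11.6 CPM, then 5.62, then 2.02 and 1.94, which is 7.39-fold and 4.97-fold lower. COL4A3, which lies head to head with it on chromosome 2, was looked up afterwards and was at 10.2 and 3.38 CPM, then 3.96, then 1.54 and 0.288. The widespread type IV chain COL4A1 was at 956 and 703 CPM, then 1160, then 1072 and 972. FOXI2, a forkhead factor, was at 16 and 17.8 CPM, then 5.41, then 3.03 and 2.10. TTYH1, a membrane protein of neural progenitors, was at 26.5 and 53.7 CPM, then 8.30, then 5.11 and 7.05. GPC3, a glypican that binds WNT and hedgehog ligands, was at 108 and 278 CPM, then 53.4, then 34.3 and 72.1. OTX1, a homeobox factor of the anterior brain, was at 11.1 and 23.3 CPM, then 5.09, then 3.03 and 5.97.

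Levels of neural genes are given beside these lower genes. Both controls had more SHISA2, TTYH1, LMX1B and GPC3 than any SOX2-negative library, and TTYH1 was at 88.2 and 104 CPM there. The neural and forebrain list, 12 genes, summed to 12.1 and 19.5 CPM at 100 ng/ml, 7.39 at 300, and 5 and 3.34 at 1000, against 1185 and 1529 CPM in the controls and 47.9 to 164 CPM in the SOX2-positive libraries. Of the 6 that passed the filter 3 had a slope above 0 and 3 below. SIX3, a forebrain factor, was at 5.92 and 15.1 CPM, then 2.52, then 1.06 and 0.330, and at 249 and 290 CPM in the controls (slope -3.88, and -2.49 without the 100 ng/ml library of replicate 2). Without SIX3 the list summed to 6.15 and 4.41 CPM at 100 ng/ml, 4.87 at 300, and 3.94 and 3.01 at 1000. SOX1 had no count in the SOX2-negative libraries, PAX6 was at most 0.213 CPM and SOX2 at most 5.98 CPM. The part of other cells in the lower genes was not tested.

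**Figure D5:**
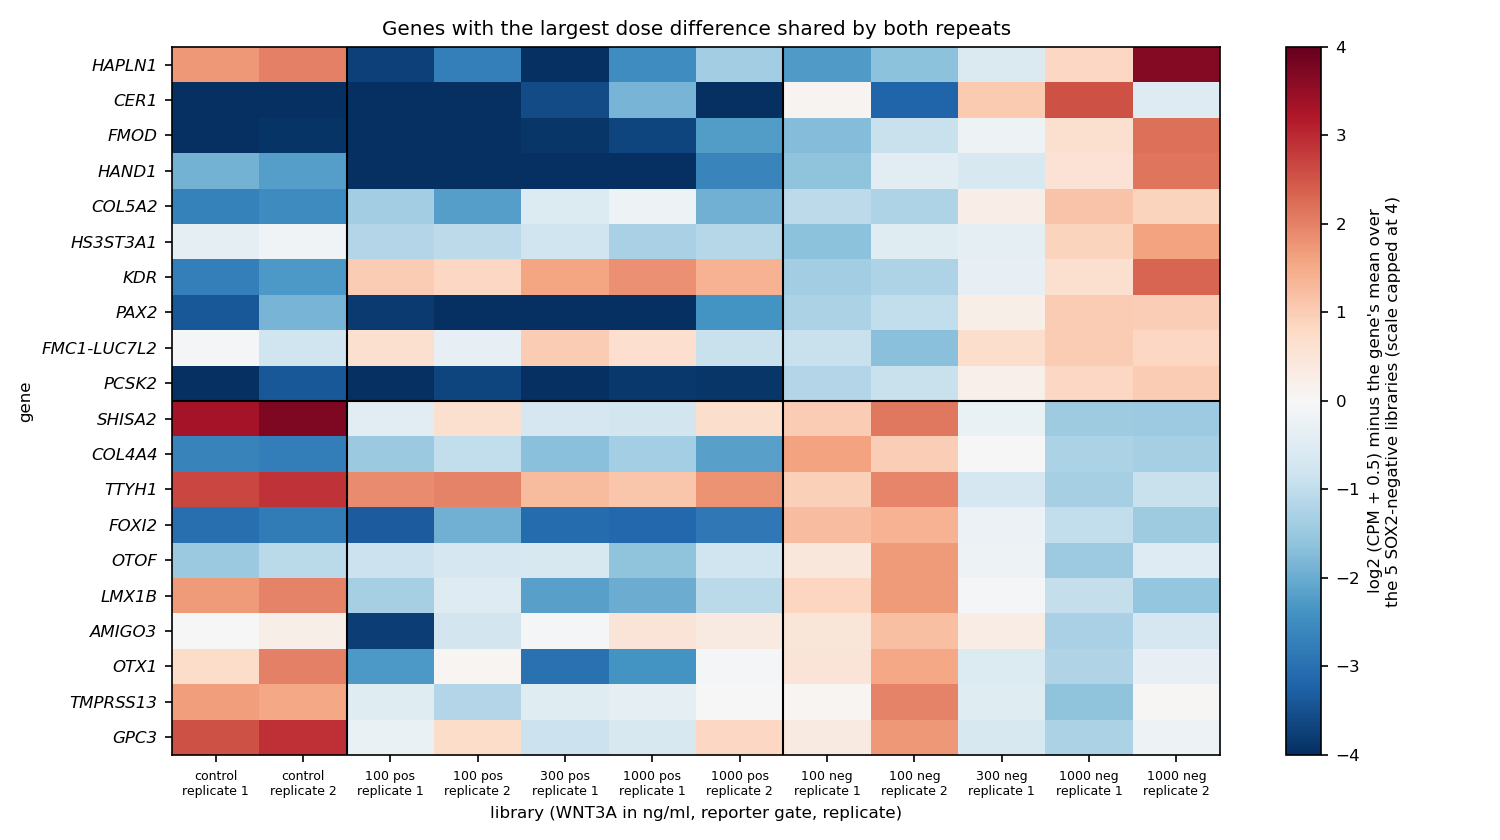
log2 (CPM + 0.5) of 20 genes in the 12 libraries (columns, labelled by WNT3A dose in ng/ml, gate and replicate), each gene centred on its mean over the 5 SOX2-negative libraries, with colours capped at 4. The upper 10 genes are higher and the lower 10 lower at 1000 ng/ml in both repeats of the SOX2-negative cells, and the controls are high for HAPLN1, SHISA2, TTYH1 and GPC3.

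The repeats differed in level at a given dose for some genes, though no gene passed the test. The edgeR test of replicate 2 against replicate 1, with dose in the fit, passed 0% of 16149 symbols. Its lowest adjusted p was 0.087, with 1038 symbols at an unadjusted p under 0.05, and DESeq2 called 103. CER1 (log2 difference -3.18) and MIXL1 (-2.73) were among those at an adjusted p of 0.087 by edgeR, both lower in replicate 2. NODAL, the ligand of the streak, was at 2.95 to 5.53 CPM in the 3 libraries of replicate 1 and at 0.513 and 0.865 CPM in replicate 2. GADD45B, a stress-response gene named after its values were seen, was at 35.0 to 64.3 CPM in replicate 1 and at 5.77 and 12.1 in replicate 2. Metallothioneins, small metal-binding proteins, went the other way and were also named after their values were seen. MT2A was at 0.798 to 1.20 CPM in replicate 1 and at 19.4 and 9.35 CPM in replicate 2 (log2 difference 3.82, SE 0.29; adjusted p 0.087 by edgeR). The same order held outside the gate: MT2A was at 1.42 CPM in the control of replicate 1 and 8.68 in that of replicate 2, and at 4.42 to 6.79 against 13.9 and 17.9 in the SOX2-positive libraries. The metallothionein genes are near-identical copies, so reads may be split among them.

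Markers of stress and RNA makeup also differed between libraries. JUN, an immediate early gene, was at 14 CPM in the 100 ng/ml library of replicate 2 and at 136 to 254 in the other 4 SOX2-negative libraries, and FOS was at 84.1 against 280 to 456. The 9 genes of the dissociation stress list summed to 783 CPM there and to 989 to 1464 in the others. The 10 mitochondrially encoded genes summed to 36165 and 30545 CPM at 100 ng/ml, 42438 at 300, and 44435 and 41811 at 1000, and 6 of the 10 were separated higher, beside 22.2% of all tested symbols. The p53 and apoptosis list summed to 697 CPM in the 100 ng/ml library of replicate 2 and to 383 to 446 in the others. The part of these differences in the dose values of replicate 2 was not tested.

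No gene's dose slope passed the test of a difference between the gates. In the edgeR fit of all 10 treated libraries, 0% of 16918 symbols passed, the lowest adjusted p was 0.21, 1909 had an unadjusted p under 0.05, and DESeq2 called 49. VIM had a slope of 1.67 in SOX2-negative cells and of 0.07 (SE 0.16) in SOX2-positive cells, a difference of 1.61 (SE 0.23; adjusted p 0.21). SHISA2 had a slope of -0.08 (SE 0.30) in SOX2-positive cells, a difference of -2.91 (SE 0.44; adjusted p 0.21). For KDR the difference was 2.30 (SE 0.62; adjusted p 0.39). HAND1 had a slope of 3.37 (SE 0.58) in SOX2-positive cells, where it was at 0.149 to 0.531 CPM in 4 libraries and at 5.88 CPM in the 1000 ng/ml library of replicate 2 (difference -0.96, SE 0.70; adjusted p 0.46). CER1 and MIXL1 also had slopes above 0 there, 3.92 (SE 0.66) and 1.42 (SE 0.23). Both gates of a coverslip share their culture.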

How the data were processed

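Per the labels' protocols, poly(A) RNA was primed with random hexamers and sequenced as 150-base paired reads on an Illumina NovaSeq, and per the submitters' processing notes Salmon and GRCh38 were used (version, annotation and strand setting not given in the sources used here). The authors deposited a table of estimated counts for 37951 Ensembl identifiers in 12 libraries, with no filter stated. Here the estimated counts were rounded and identifiers sharing a symbol were summed (1034 symbols of 35940 had more than 1). Overlapping, readthrough and near-identical genes may share reads. Symbols were kept by edgeR's filterByExpr (minimum count 10, minimum total 15).

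The dose trend was fitted with edgeR 4.0.16 (quasi-likelihood, TMM) in R 4.3.3 as replicate plus log10 dose over the 5 SOX2-negative libraries, two-sided, Benjamini-Hochberg at 0.05. DESeq2 1.42.0, RLE scaling, no filter, separate identifiers, dose as 3 levels, no replicate block, the 10 treated libraries and leaving out each library were alternatives. The replicate number marks a separately performed experiment per the labels. Deviations of same-numbered libraries from their group means correlated at -0.148 to 0.325. CPM uses TMM over 12 libraries, and log2 ratios add 0.5 CPM. Symbols were matched to GENCODE 29 coordinates and to RefSeq promoter windows. The fits were tested on simulated counts.

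The members, gene lists and markers were chosen with earlier results of these data known. Named genes are the 4 markers, the first 4 genes of each list, and the 10 per direction with the largest difference shared by both repeats. Other list members named, and the motif, were chosen after their values were seen. With the replicate as a block, the dose-trend p-values leave out a constant difference between the 2 repeats. In the main edgeR fit they rest on 2 residual degrees of freedom, plus information shared across genes. That residual holds the disagreement of the repeats on the dose step and the departure of the middle dose from a straight line. Some single-gene results are not reported here.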

Additional observations from a re-analysis of the deposited data

How the results depend on the processing

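The dose trend called 0 symbols with all 5 libraries, and also with RLE scaling, with identifiers kept apart and with no replicate block (0 calls in this unpaired fit). It called 237 with DESeq2, 62 with no filter on low counts, 83 with dose as 3 levels, 56 with all 10 treated libraries and 70 to 3298 leaving out 1 library. The repeat difference called 0, 103 with DESeq2 and 23 to 8973 leaving out 1 library. The difference of slopes between gates called 0 in the fits with no replicate block and with a coverslip block, 49 with DESeq2 and 0 to 5 leaving out 1 library. The cause was not tested, and fits without 1 library have 1 residual degree of freedom fewer. Symbols 2-fold higher in both repeats numbered 173, or 363 with 0.1 CPM added, 75 with 2 CPM added and 87 at a mean of at least 5 CPM. Those 2-fold lower numbered 114, or 262, 42 and 48. These alternatives for 2-fold counts were chosen after seeing the data.

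Of 62 genes whose slope was followed over 11 settings, the sign was reversed for SOX17 alone: its slope was -1.05 to 0.02 leaving out 1 library, with 0.02 without the 100 or the 1000 ng/ml library of replicate 2. Both of those fits take the slope from replicate 1 alone. The 62 leave out other genes named above whose slopes also changed sign leaving out 1 library. Among these were GSC (-2.10 to 1.49), TBXT (-0.14 to 1.29), EOMES (-0.31 to 0.23) and CXCR4 (-0.19 to 0.31). The share of same-sign ratios was 54.5% to 55.2%, and the mean difference of the mesoderm and endoderm balance 1.01 to 1.66. Without the 100 ng/ml library of replicate 2, a choice made after seeing the data, the median slope changed sign for the gut and liver (-0.10), retinoic acid (0.20) and p53 lists (0.17). With 1 library at 300 ng/ml and 2 repeats, small differences were not detectable.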

Other observations

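Outside the gene lists, several genes were called higher with dose in SOX2-negative cells both by DESeq2 and by edgeR over the 10 treated libraries, and are named here after their values were seen. PEG10, an imprinted retrotransposon-derived gene, was at 799 and 480 CPM at 100 ng/ml (replicates 1 and 2), 1706 at 300, and 2234 and 2349 at 1000. It had a slope of 1.89 (SE 0.29; adjusted p 4.5e-06 by DESeq2 and 0.036 in the 10-library fit). PLAGL1, another imprinted gene, was at 7.12 and 5.51 CPM, then 16.7, then 27.1 and 35.7. NTS, the neuropeptide neurotensin, was at 66.2 and 37.6 CPM, then 114, then 213 and 103. LDB2, a cofactor of LIM-domain factors, was at 17.1 and 9.53 CPM, then 29.4, then 53.7 and 52.7. NRP2, a semaphorin and VEGF co-receptor, was at 9.34 and 12.5 CPM, then 14, then 25.4 and 60.8. In each of these genes both libraries at the top dose lay above both at the lowest, and the 300 ng/ml library lay between those of replicate 1.

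On the other side, SEMA5B, a semaphorin, was at 74.0 and 112 CPM, then 55, then 31.4 and 40.6, and LINGO1, a neural membrane protein, at 47.2 and 73.0 CPM, then 29, then 22.3 and 31.2. PDPN, a mucin-type membrane protein also listed here for primordial germ cells, was at 106 and 155 CPM, then 73.8, then 55.7 and 71.9 (slope -1.03, SE 0.24; adjusted p 0.04 by DESeq2 and 0.045 in the 10-library fit). Of the genes defining germ cells, NANOS3 was at most 1.79 CPM and TFAP2C at most 3.47 CPM in these libraries.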
